A study of Homo sapiens with 6 samples.

Results

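Kinesins are motor proteins that hydrolyse ATP to walk along, or to take apart, microtubules. Some build the spindle, move chromosomes and split the cell in division, others carry vesicles, mitochondria and receptors through the cytoplasm, and a further group works in cilia or trims microtubule ends. In proliferating tumour cells such as colorectal carcinoma cells, the mitotic members are made in step with the cell cycle, while most of the neuronal carriers are known for low levels outside the nervous system.

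Kinesin heavy chain genes were taken by symbol (KIF with a number and at most one letter A to C, and KIFC1, KIFC2 and KIFC3, with 1 symbol of that form left out of the set). This gave 41 of the 19655 genes of the count table. They were divided by role into 13 mitotic kinesins, 15 transport kinesins and 13 ciliary and other kinesins. The libraries were labelled HCT116, the name of an established human colorectal carcinoma line. The control group, NC, had 3 libraries of genotype "control", and the ASO group had 3 libraries of genotype "SNORA67 knockdown". ASO stands for antisense oligonucleotide, and SNORA67 belongs to the H/ACA small nucleolar RNAs, which guide pseudouridylation of ribosomal RNA. Which oligonucleotide the NC cells received, the dose and the time after transfection are left unstated by the labels. SNORA67 itself was not analysed here, so its level could not serve as a check of the labels. Nothing in the labels says that the 3 libraries of a group came from separate cultures, so the p-values measure the spread among 3 libraries per group, and that spread may be technical.

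The libraries held 49136502 to 54905215 counts. The most frequent nonzero count was 4 in every library, so 1 sequenced fragment is worth about 4 counts. Values are given as CPM (counts per 1000000 counts of the library) after scaling for composition, and 3 fragments (12 counts) were taken as the floor of detection. Of 15 colon epithelial markers, 8 were under 1 CPM in NC, CDX1 and CEACAM5 were at 0 in all 3 NC libraries, and KRT8 made up 63.0% of the list's summed level. That sum was 1990 to 2293 CPM in NC and 1720 to 2262 CPM in ASO. By the test described further on, 3 of 12 tested markers were called higher and 0 lower, against 26.8% and 19.1% of all genes. These 3, KRT19, VIL1 and LGALS4, were under 12 counts in every NC library and entered the test through their ASO libraries. The 13 mesenchymal markers summed to 3914 to 4346 CPM in NC and 4913 to 5644 CPM in ASO, with POSTN at 0 throughout. Of 11 tested, 5 were higher (45.5%, against 26.8% of all genes) and 4 lower (36.4%, against 19.1%). In NC, EPCAM averaged 4.37 CPM and CDH1 1.06 CPM, while KRT18 averaged 712 CPM and VIM 1201 CPM. Whether these markers match the labelled line, and their part in the kinesin values, was not tested.

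The upstream sequences of 4 kinesin genes are shown because they show where a motif of cell cycle promoters stands in mitotic members that fell and rose (KIF20B and KIF18B), in a ciliary member (KIF24) and in a transport member without it (KIF17). They are from RefSeq (GRCh38.p14), read 5′ to 3′ on the strand of the gene, without bases that lie in annotated exons. Capitals mark the NF-Y motif CCAAT or its reverse complement ATTGG. KIF20B, which fell, is at chr10:89701340-89701589 (plus strand). KIF18B, which rose, is at chr17:44947774-44947911 (minus strand). KIF24, which rose, is at chr9:34329269-34329505 (minus strand). KIF17, which rose and holds no match, is at chr1:20718018-20718257 (minus strand).
KIF20B: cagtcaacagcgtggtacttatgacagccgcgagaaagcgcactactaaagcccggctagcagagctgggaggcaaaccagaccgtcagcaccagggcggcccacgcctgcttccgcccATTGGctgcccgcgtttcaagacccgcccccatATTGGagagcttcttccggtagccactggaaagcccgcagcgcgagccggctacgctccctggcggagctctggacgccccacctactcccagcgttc
KIF18B: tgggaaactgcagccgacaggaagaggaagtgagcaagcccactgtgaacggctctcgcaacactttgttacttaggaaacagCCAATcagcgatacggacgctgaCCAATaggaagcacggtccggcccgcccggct
KIF24: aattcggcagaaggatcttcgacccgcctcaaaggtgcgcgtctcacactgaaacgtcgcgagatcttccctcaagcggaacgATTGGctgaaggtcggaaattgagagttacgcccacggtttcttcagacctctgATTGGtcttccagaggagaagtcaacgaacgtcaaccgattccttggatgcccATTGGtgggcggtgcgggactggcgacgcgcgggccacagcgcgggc
KIF17: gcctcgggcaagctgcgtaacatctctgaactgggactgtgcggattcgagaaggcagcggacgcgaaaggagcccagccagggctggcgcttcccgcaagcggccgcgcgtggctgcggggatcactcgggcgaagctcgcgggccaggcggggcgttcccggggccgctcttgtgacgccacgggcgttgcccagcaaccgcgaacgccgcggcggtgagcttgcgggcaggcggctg

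NF-Y is a transcription factor that binds CCAAT boxes, and the cell cycle homology region (CHR, TTTGAA or TTCGAA) is an element through which MuvB complexes act on G2 and M phase genes. Each was searched on both strands of the 250 bases before the RefSeq start site, and no match of one overlapped a match of the other in a kinesin promoter. Of the 41 kinesins, 33 had a promoter entry. CCAAT was present in 10 of 13 mitotic kinesins (76.9%), against 3 of 11 transport kinesins (27.3%), 3 of 9 ciliary and other kinesins (33.3%) and 33.0% of 27305 promoters of all genes. At least 2 CCAAT matches stood in 5 of the 13 mitotic promoters (38.5%), against 10.0% of all promoters. KIF20B had them 131 and 98 bases before its start, and KIF18B 55 and 32 bases before. TTTGAA was found in 4 mitotic promoters (30.8%, against 13.6% of all), and TTCGAA in 1, that of KIF22 (7.69%, against 1.20%). CCAAT together with either form of the CHR was present in 4 mitotic promoters (30.8%, against 5.24% of all). Among the mitotic kinesins, CCAAT was present in 3 of 4 that fell, in the 1 that rose and in 6 of 7 that were not called, so its presence did not separate these calls. Some windows lie in annotated exons, with all 250 bases for KIFC1, KIF18A, KIF9, KIF3C and KIF21A, 239 for KIF20A and 197 for KIF23. The KIF20A window lies within the bounds of that gene in the count table. A match is a description of the letters and not a measured binding site.

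**Figure D1:**
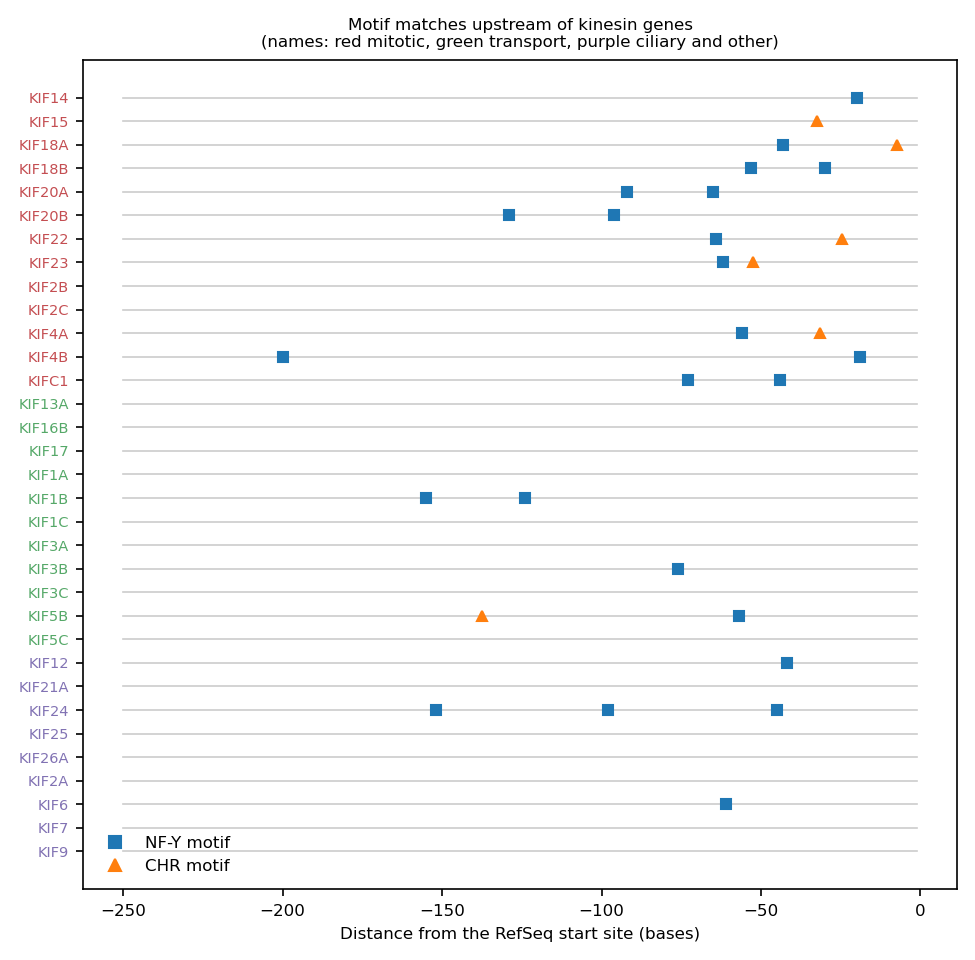
Positions of NF-Y and CHR motif matches in the 250 bases before the RefSeq start site of the 33 kinesin genes with an entry. The x axis is the distance from the start site in bases, each grey line is 1 gene, and a square or triangle is 1 match. Matches are present in 10 of 13 mitotic genes for the NF-Y motif, and most mitotic matches lie within the 100 bases nearest to the start. Some windows lie partly or wholly in annotated exons.

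Of the 41 kinesins, 35 passed the filter on low counts and were tested in 1 fit with all other genes that passed by edgeR's quasi-likelihood test, called at a Benjamini-Hochberg adjusted p under 0.05. The 6 that were not tested were KIF2B, a mitotic depolymerase at 0 in every library, and KIF1A, KIF5C, KIF6, KIF12 and KIF19, which had 0 counts in NC and at most 5 counts in any ASO library. Among the 35, 9 were higher and 9 lower in ASO, which is 51.4% called. The background was 46.0% of all 14062 genes tested, with 26.8% higher and 19.1% lower, so the share of kinesins called was near that of all genes. The median log2 difference was -0.10 for kinesins and 0.01 for all genes. The 3 NC libraries and the 3 ASO libraries did not overlap for 23 kinesins, 11 higher and 12 lower, against 57.5% of all genes tested (31.6% higher and 25.9% lower). In bulk RNA, fewer cells in a phase or of a kind and less RNA per cell cannot be told apart.

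Summed over its members, the mitotic group held 1338, 1343 and 1359 CPM in NC and 1150, 1118 and 1170 CPM in ASO. All 3 ASO sums lay below all 3 NC sums. Without KIF20A the mitotic sums were 892, 923 and 915 CPM in NC and 895, 888 and 924 CPM in ASO, so the 2 groups overlapped. The transport group summed to 1061, 957 and 987 CPM in NC and 1109, 1012 and 1130 CPM in ASO, and the ciliary and other group to 481, 439 and 425 CPM in NC and 476, 425 and 452 CPM in ASO, with overlap in both. A few genes carried these sums. KIF20A gave 32.4% of the mitotic sum in NC, KIF1C 35.6% of the transport sum and KIF26A 55.2% of the remaining one.

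Mitotic kinesins as a group were not called alike. Of 12 tested, 4 fell (KIF20A, KIF20B, KIF14 and KIF15), 1 rose (KIF18B) and 7 were not called. The share called was 41.7%, against 46.0% of all genes (33.3% lower against 19.1%, and 8.33% higher against 26.8%). The median log2 difference was -0.18, against 0.01 for all genes tested. Both kinesin-6 paralogues KIF20A and KIF20B fell, while the third member of that family, KIF23, was not called.

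KIF20A (chr5:138178719-138187723, also called MKLP2), the motor that brings the chromosomal passenger complex to the central spindle for cytokinesis, was at 446, 419 and 444 CPM in NC and 255, 230 and 246 CPM in ASO. Every ASO library lay far below every NC library. This was a 1.79-fold fall (log2 -0.84 ± 0.08 SE, adjusted p = 0.000115 by edgeR). KIF20B (chr10:89701590-89774939, also called MPP1), a plus-end motor needed late in cytokinesis, was at 41.7, 59.6 and 31.5 CPM in NC and 10.3, 13.8 and 8.90 CPM in ASO. It fell 4.02-fold (log2 -2.01 ± 0.27 SE, adjusted p = 0.000770 by edgeR), and its highest ASO library was still below its lowest NC library. KIF23 (MKLP1), the motor subunit of the centralspindlin complex, was at 102, 116 and 96.3 CPM in NC and 74.1, 123 and 96.8 CPM in ASO. Its groups overlapped and the difference was not called (log2 -0.10 ± 0.18 SE, adjusted p = 0.681 by edgeR).

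KIF14, which binds citron kinase at the midbody, was at 33.1, 36.7 and 26.1 CPM in NC and 12.5, 23.0 and 14.9 CPM in ASO. It fell 1.90-fold (adjusted p = 0.0158 by edgeR), with NC and ASO libraries apart. KIF15, a spindle motor that helps to keep the poles separate, was at 28.0, 34.8 and 27.0 CPM in NC and 17.1, 25.5 and 15.7 CPM in ASO, a 1.54-fold fall (adjusted p = 0.0410 by edgeR). KIF20A and KIF20B were called in every alternative, and these 2 were not. KIF14 was no longer called without NC1 (adjusted p = 0.0551), NC2 (0.0623) or ASO3 (0.0622), and KIF15 without NC1 (0.0861), NC2 (0.146), NC3 (0.0677), ASO1 (0.107) or ASO3 (0.130), which left 2 mitotic kinesins lower without NC1, NC2 or ASO3.

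KIF18B (chr17:44924709-44947773), a kinesin-8 motor of astral microtubule ends, moved the other way. It was at 128, 118 and 142 CPM in NC and 198, 166 and 191 CPM in ASO, a 1.43-fold rise (log2 0.51 ± 0.11 SE, adjusted p = 0.00585 by edgeR) with the lowest ASO library above the highest NC library. Its paralogue KIF18A, which dampens chromosome oscillation at metaphase, was at 6.21, 8.21 and 7.61 CPM in NC and 2.92, 8.70 and 3.88 CPM in ASO and was not called (log2 -0.51, adjusted p = 0.317 by edgeR). Library ASO2 stood above the other 2 ASO libraries for KIF18A, and without it the gene was called lower (log2 -1.11, adjusted p = 0.00814 by edgeR).

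The chromosome arm motors were not called. KIF4A, a chromokinesin that works with PRC1 on the central spindle, was at 127, 143 and 128 CPM in NC and 105, 117 and 117 CPM in ASO, apart but short of the threshold (log2 -0.23, adjusted p = 0.0737 by edgeR). KIF22 (Kid), which pushes chromosome arms away from the poles, was at 168, 155 and 179 CPM in NC and 165, 138 and 156 CPM in ASO (log2 -0.13, adjusted p = 0.318 by edgeR). KIF4B, a near-identical copy of KIF4A, had 7, 2 and 4 counts in NC and 12, 20 and 19 counts in ASO. Counts of this pair could be split between the copies, so the KIF4B value is uncertain, and it was not called (adjusted p = 0.0555 by edgeR).

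KIF2C (MCAK), the depolymerase that corrects wrong kinetochore attachments, was at 135, 141 and 145 CPM in NC and 156, 144 and 158 CPM in ASO (log2 0.12, adjusted p = 0.262 by edgeR). The minus-end motor KIFC1 (HSET), known for clustering extra centrosomes, was at 123, 111 and 132 CPM in NC and 154, 129 and 161 CPM in ASO. The KIFC1 groups overlapped by 1 library and the rise was not called (log2 0.28, adjusted p = 0.0789 by edgeR). With the replicate number as a block, KIFC1 was called higher (log2 0.27, adjusted p = 0.0111) and KIF4A lower (log2 -0.23, adjusted p = 0.0277). That fit gave 5 mitotic kinesins lower and 2 higher, against 52.8% of all genes called (24.8% lower and 27.9% higher). KIFC1 was also called without ASO2 (adjusted p = 0.0134).

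**Figure D2:**
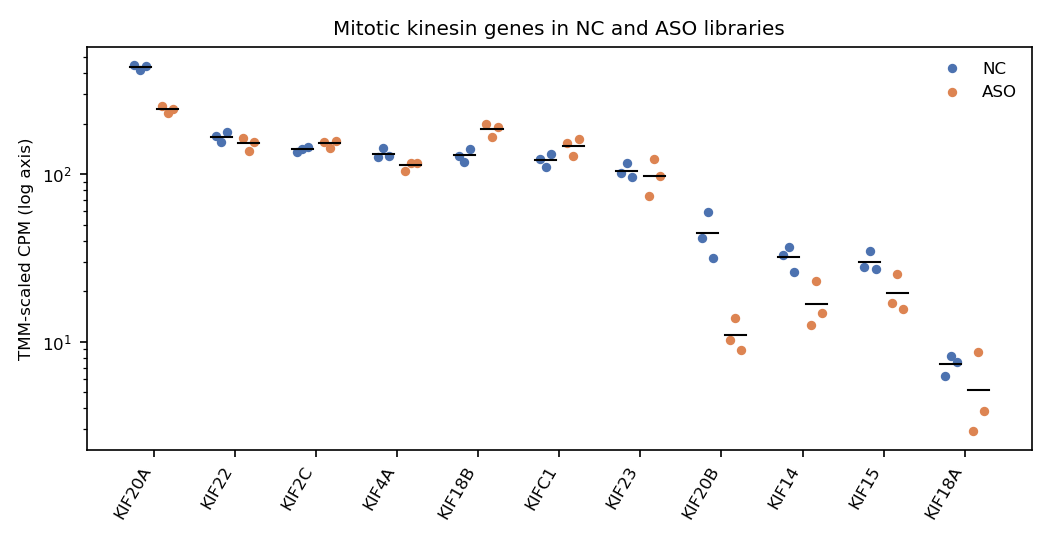
Level of each mitotic kinesin with at least 1 CPM in NC or ASO, in CPM on a log axis. Points are single libraries, 3 NC and 3 ASO per gene, and the short lines are group means. KIF20A and KIF20B show the ASO points wholly below the NC points and KIF18B wholly above, while KIF23 and KIF22 overlap. KIF2B and KIF4B are left out for their levels.

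Of 13 genes known to work beside the mitotic kinesins, all tested, 8 fell and 0 rose, which is 61.5% lower against 19.1% of all genes. The count of 0 higher was the same at an unadjusted p under 0.05, with DESeq2 and with limma-voom, which both also called 8 lower. CENPF, a kinetochore and nuclear matrix protein, was at 200, 245 and 200 CPM in NC and 68.9, 90.3 and 73.1 CPM in ASO and fell 2.78-fold (adjusted p = 0.000125 by edgeR). CENPE, the kinetochore motor of the kinesin-7 family whose symbol lies outside the KIF names, was at 22.8, 34.0 and 24.3 CPM in NC and 7.21, 7.28 and 4.38 CPM in ASO and fell 4.30-fold (adjusted p = 0.000475 by edgeR). NUSAP1, a microtubule bundling protein of the spindle, was at 184, 177 and 152 CPM in NC and 98.7, 122 and 116 CPM in ASO and fell 1.52-fold (adjusted p = 0.00424 by edgeR). The list's median log2 difference was -0.33. After the trend of all genes with transcript GC content and length was subtracted, it was -0.22. The count of partners called lower was 5 without NC1, NC2, ASO1 or ASO3 and 4 without NC3. The share of all genes called in those fits is not given here, so these counts have no background beside them.

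Transport kinesins moved in both directions. Of 13 tested, 3 rose (KIF17, KIFC3 and KIF5A), 3 fell (KIF3C, KIF13A and KIF3A) and 7 were not called. The share called was 46.2%, near the 46.0% of all genes (23.1% higher against 26.8%, and 23.1% lower against 19.1%). The median log2 difference was -0.15. The widest differences were in 2 carriers known from neurons, KIF17 and KIF5A, that were near the floor in NC. Both passed the low-count filter through their ASO libraries, so their entry into the test, and into the share higher, depended on a high ASO level.

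KIFC3 (chr16:57758217-57863053), a minus-end motor of cell junctions and the Golgi, was at 146, 114 and 138 CPM in NC and 345, 280 and 350 CPM in ASO. It rose 2.45-fold (log2 1.29 ± 0.13 SE, adjusted p = 0.000184 by edgeR), and the lowest ASO library was well above the highest NC library. Per kilobase of transcript, KIFC3 was at 43.5 ± 5.50 CPM per kb in NC (SD, n = 3), below KIF20A at 136 ± 4.72 (SD, n = 3). In ASO, KIFC3 was at 113, 92.0 and 115 CPM per kb and KIF20A at 79.8, 71.9 and 76.9, so the order of these 2 motors was reversed with no overlap of their libraries. These levels per length used 1 annotated transcript per gene and depend on that choice.

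KIF17 (chr1:20664014-20718017), a homodimeric kinesin-2 that carries NMDA receptor vesicles in dendrites and enters cilia, had 12, 8 and 8 counts in NC and 395, 271 and 385 counts in ASO. That is 7 against 263 fragments, a ratio of 38.5 after scaling for library size, with an exact 95% interval of 18.4 to 96.8 that covers counting error only (adjusted p = 1.4e-05 by edgeR). Its ASO level was 7.36, 5.42 and 7.70 CPM, still low beside KIFC3. KIF5A (chr12:57546026-57586633), the neuronal heavy chain of conventional kinesin, had 8, 13 and 23 counts in NC and 133, 165 and 117 counts in ASO. The KIF5A ratio was 9.70 (interval 5.2 to 20, 11 against 104 fragments, adjusted p = 0.00109 by edgeR).

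The ubiquitous heavy chain KIF5B, which carries mitochondria and lysosomes, was at 76.8, 87.6 and 67.2 CPM in NC and 54.3, 67.8 and 58.5 CPM in ASO. Its groups overlapped slightly and it was not called (log2 -0.36, adjusted p = 0.0582 by edgeR). KIF5B did pass with the replicate block (adjusted p = 0.0150), with upper-quartile scaling (0.0484), without NC3 (0.0448) and without ASO2 (0.0263). The neuronal KIF5A thus rose from the floor, while KIF5B was lower on average without passing the test.

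The kinesin-2 subunits that form the heterotrimeric motor of ciliary and vesicle transport were lower or not called. KIF3C was at 31.0, 32.3 and 32.9 CPM in NC and 20.2, 17.7 and 20.7 CPM in ASO and fell 1.64-fold (adjusted p = 0.00232 by edgeR), with tight groups far apart. KIF3A was at 12.6, 13.4 and 10.2 CPM in NC and 6.87, 9.24 and 8.12 CPM in ASO and fell 1.49-fold (adjusted p = 0.0362 by edgeR). The KIF3A call was lost without NC1 (adjusted p = 0.116), NC2 (0.127), ASO1 (0.0938) or ASO3 (0.0904). KIF3B, the usual partner of KIF3A, was at 123, 130 and 128 CPM in NC and 110, 113 and 113 CPM in ASO, apart but not called (log2 -0.18, adjusted p = 0.0964 by edgeR), and it was called with the replicate block (adjusted p = 0.0445). With KIF5B, this made 5 transport kinesins lower in the blocked fit.

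Among the kinesin-3 carriers, KIF13A, which moves endosomes and mannose 6-phosphate receptors, was at 143, 119 and 119 CPM in NC and 84.8, 80.5 and 91.7 CPM in ASO and fell 1.48-fold (adjusted p = 0.00415 by edgeR). KIF16B, an early endosome motor, was at 11.2, 11.7 and 8.81 CPM in NC and 4.95, 8.56 and 7.52 CPM in ASO, apart but not called (adjusted p = 0.0739 by edgeR). KIF1C, a carrier of dense core vesicles and integrins, was at 375, 337 and 359 CPM in NC and 350, 283 and 330 CPM in ASO (adjusted p = 0.231 by edgeR). Of these 3 carriers KIF13A was called, while KIF1C, the most abundant transport kinesin by CPM, overlapped between groups. KIF1B, a mitochondrial and synaptic vesicle carrier, was at 114, 87.3 and 89.6 CPM in NC and 95.2, 122 and 106 CPM in ASO (adjusted p = 0.404 by edgeR). KIF13B was at 6.04, 7.11 and 7.09 CPM in NC and 5.66, 5.56 and 9.40 CPM in ASO (adjusted p = 0.939 by edgeR). The kinesin-14 member KIFC2 was at 22.6, 18.2 and 25.8 CPM in NC and 21.3, 15.6 and 23.9 CPM in ASO (adjusted p = 0.626 by edgeR), and all 3 genes overlapped between groups.

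**Figure D3:**
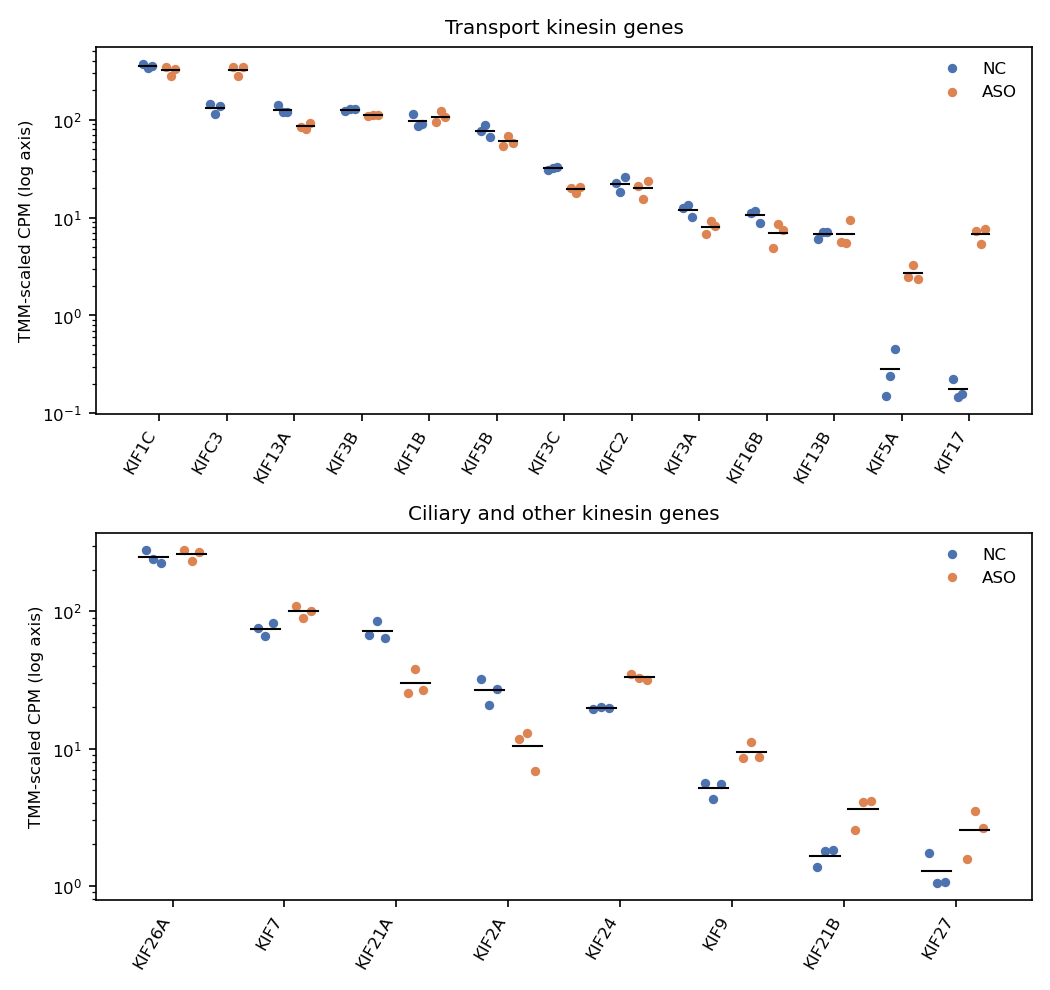
Level of each transport, ciliary or other kinesin with at least 1 CPM in NC or ASO, in CPM on a log axis. Points are single libraries, 3 NC and 3 ASO per gene, and the short lines are group means. KIFC3, KIF17 and KIF5A show ASO points wholly above NC points, KIF21A, KIF3C and KIF13A wholly below, and KIF1C and KIF26A overlap. Members under 1 CPM in both groups, and KIF25 with 2 libraries at 0, are left out.

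Light chains and cargo adaptors link kinesin heavy chains to cargo. Of 19 tested, 8 rose (42.1%, against 26.8% of all genes) and 4 fell (21.1%, against 19.1%). The list's median log2 difference was 0.21. It was -0.01 after the trend of all genes with transcript GC content and length was subtracted. TRAK2, a mitochondrial adaptor of KIF5 motors, was at 65.2, 68.5 and 56.9 CPM in NC and 123, 147 and 127 CPM in ASO and rose 2.08-fold (adjusted p = 0.000281 by edgeR). MAPK8IP3 (JIP3), an adaptor between kinesin-1 and dynein, was at 63.0, 53.5 and 74.0 CPM in NC and 172, 131 and 156 CPM in ASO and rose 2.41-fold (adjusted p = 0.000456 by edgeR). The light chain KLC3 had 3, 5 and 0 counts in NC, under the floor in each library, and 117, 112 and 139 counts in ASO (adjusted p = 0.000622 by edgeR). KTN1 (kinectin), a membrane anchor of kinesin, was at 128, 186 and 122 CPM in NC and 41.3, 74.3 and 55.4 CPM in ASO and fell 2.56-fold (adjusted p = 0.00310 by edgeR). RHOT1 (Miro1), the mitochondrial GTPase that recruits TRAK adaptors, was at 8.42, 15.1 and 9.21 CPM in NC and 2.77, 5.88 and 2.82 CPM in ASO and fell 2.85-fold (adjusted p = 0.0114 by edgeR). FEZ2, a paralogue of the kinesin-1 adaptor FEZ1, fell 1.76-fold (adjusted p = 0.0405 by edgeR), a call lost without NC1 (0.116), NC2 (0.137), ASO1 (0.0926) or ASO3 (0.0775). The count of adaptors called higher was 5 without NC1 or ASO1 and 4 without ASO3, and that of adaptors called lower was 2 without NC1, NC2, ASO1 or ASO3.

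Ciliary and other kinesins also moved in both directions. Of 10 tested, 5 rose (KIF24, KIF9, KIF21B, KIF7 and KIF26B), 2 fell (KIF21A and KIF2A) and 3 were not called. The median log2 difference was 0.81. The share called was 70.0%, against 46.0% of all genes (50% higher against 26.8%, and 20% lower against 19.1%), and it rests on 10 genes, some of very low count. KIF26B and KIF25 passed the low-count filter only through their ASO libraries, so their entry into the test depended on a high ASO level. With counts divided by 4, 8 members were tested, with 4 higher, 2 lower and a median of 0.61.

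KIF21A (chr12:39293228-39443390), a kinesin-4 that halts microtubule growth at the cortex, was at 67.5, 85.5 and 63.4 CPM in NC and 25.4, 37.7 and 26.5 CPM in ASO. It fell 2.41-fold (log2 -1.27 ± 0.19 SE, adjusted p = 0.00126 by edgeR), with the groups far apart. Its paralogue KIF21B was low, at 1.36, 1.78 and 1.82 CPM in NC and 2.53, 4.10 and 4.18 CPM in ASO, and rose 2.18-fold (adjusted p = 0.0153 by edgeR). The 2 KIF21 genes thus moved in opposite directions, and the KIF21B call was lost without NC1 (adjusted p = 0.0564) or ASO3 (0.0620).

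KIF2A, a kinesin-13 depolymerase of spindle poles and of neurites, was at 32.2, 20.6 and 27.0 CPM in NC and 11.7, 12.9 and 6.90 CPM in ASO and fell 2.53-fold (adjusted p = 0.00499 by edgeR). KIF2A was counted in this group, while its kinesin-13 relatives KIF2B and KIF2C were counted as mitotic. The counts for the mitotic and the ciliary and other kinesins depend on that placement. KIF24, the kinesin-13 that trims centriolar microtubules and holds back cilium formation, was at 19.4, 20.1 and 19.9 CPM in NC and 34.7, 32.9 and 31.8 CPM in ASO. KIF24 rose 1.67-fold (log2 0.74 ± 0.11 SE, adjusted p = 0.00131 by edgeR), with NC libraries within a narrow range. KIF9, a motile cilium motor, was at 5.64, 4.26 and 5.53 CPM in NC and 8.60, 11.1 and 8.62 CPM in ASO and rose 1.84-fold (adjusted p = 0.00911 by edgeR). Its exons share bases with those of the far more abundant KLHL18, as given below. KIF7, a regulator of Hedgehog signalling at the cilium tip, was at 75, 65.6 and 81.9 CPM in NC and 109, 89.1 and 101 CPM in ASO. Its 1.34-fold rise (adjusted p = 0.0214 by edgeR) was lost without NC1 (0.0531), NC2 (0.0520), ASO1 (0.0688) or ASO3 (0.0726), and without NC1 or ASO3 only 2 members of this group were called higher.

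KIF26B had 12, 8 and 0 counts in NC and 36, 32 and 60 counts in ASO, a ratio of 6.57 (interval 2.54 to 21.6, adjusted p = 0.0416 by edgeR), and its call was lost in 8 of 15 alternatives. The adjusted p was 0.0979 with the replicate block, 0.0621 with no filter on low counts and 0.0586 to 0.139 without NC1, NC2, ASO1, ASO2 or ASO3. KIF25 had 0, 18 and 0 counts in NC and 55, 34 and 74 counts in ASO, a ratio of 10.5 (interval 3.81 to 40.4). Apart from NC2, the KIF25 control libraries were at 0. KIF25 was not called (adjusted p = 0.0597 by edgeR), but was called with DESeq2 (0.0302) and limma-voom (0.0110) and without NC2 (0.00435). KIF27, at 1.05 to 1.74 CPM in NC and 1.58 to 3.5 CPM in ASO, overlapped and was not called (adjusted p = 0.0667 by edgeR). KIF26A, a kinesin without motor activity and the most abundant of this group, was at 278, 240 and 224 CPM in NC and 281, 232 and 268 CPM in ASO and was not called (adjusted p = 0.622 by edgeR).

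**Figure D4:**
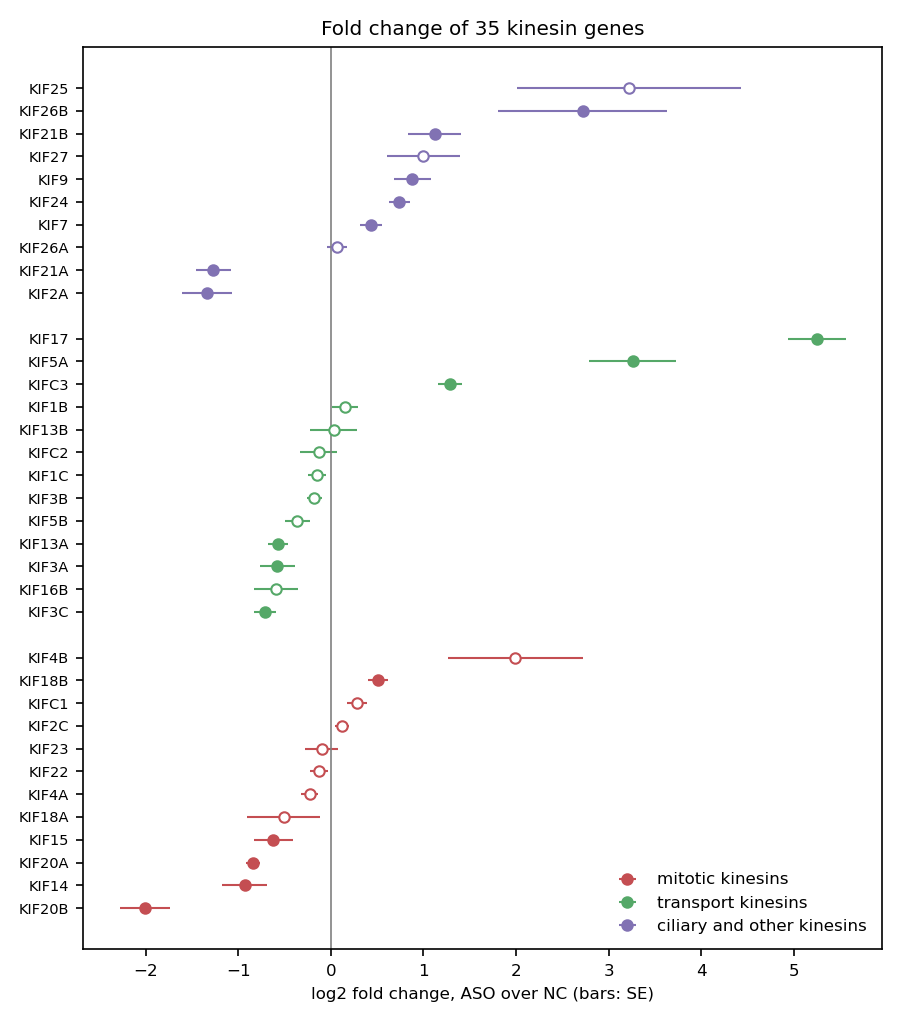
The log2 difference of ASO over NC for the 35 tested kinesins, ordered within the 3 roles, with bars for the standard error. Filled points passed the adjusted threshold and open points did not. KIF17, KIF5A and KIFC3 lie on the right among transport kinesins, KIF20B lies farthest left among mitotic kinesins, and most other members lie within 1 log2 unit of 0.

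Cytoplasmic dynein, the minus-end motor that opposes most kinesins, and its cofactor dynactin had 10 of 23 tested genes lower and 0 higher (43.5% lower, against 19.1% of all genes). At an unadjusted p under 0.05, 3 were higher. DESeq2 called 1 higher, limma-voom 0, and the blocked fit 4. DYNLL1, a light chain, was at 180, 179 and 174 CPM in NC and 109, 104 and 112 CPM in ASO and fell 1.64-fold (adjusted p = 0.000288 by edgeR). DYNC1I2, an intermediate chain, fell 1.71-fold (adjusted p = 0.00219 by edgeR), and DCTN2, a dynactin subunit, fell 1.45-fold (adjusted p = 0.00314 by edgeR). The count lower was 5 without NC1 or ASO3 and 6 without NC2 or NC3.

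Of 20 tubulin genes tested, 6 rose and 2 fell, which is 40.0% called against 46.0% of all genes (30.0% higher against 26.8%, and 10.0% lower against 19.1%). These shares are near those of all genes. TUBA1B was at 4712, 4228 and 4858 CPM in NC and 3184, 2660 and 3453 CPM in ASO (1.48-fold, adjusted p = 0.00389 by edgeR), and TUBB at 4418, 4114 and 4560 CPM in NC and 3822, 3326 and 3727 CPM in ASO (1.20-fold, adjusted p = 0.0256 by edgeR). The TUBB call was lost without NC1 (adjusted p = 0.0665), NC3 (0.0508) or ASO3 (0.0643), which left 1 tubulin lower. TUBB1, the beta-tubulin of platelets, was at 1.81, 0.716 and 1.19 CPM in NC and 8.92, 11 and 9.68 CPM in ASO (7.95-fold, adjusted p = 0.000341 by edgeR). TUBG2, a gamma-tubulin, rose 2.16-fold (adjusted p = 0.00101 by edgeR), and TUBB8 had 0, 5 and 0 counts in NC and 44, 40 and 45 counts in ASO (adjusted p = 0.00749 by edgeR). Tubulin genes are near-identical in places, so reads could be shared between them.

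Differences among kinesins went with the base composition of their transcripts. Over the 30 kinesins with a mean of at least 1 CPM in NC, the log2 difference against transcript GC content had Pearson's r of 0.567 and Spearman's rho of 0.590. Over the 11 mitotic ones r was 0.782 and rho 0.791, over the 11 transport ones 0.524 and 0.373, and over the 8 ciliary and other ones 0.364 and 0.0714. Over 11765 genes of the table at that level r was 0.309 and rho 0.365. These are correlations across genes measured in the same 6 libraries, and genes are not independent replicates. KIF20B has 34.2% GC and KIF18B 62.4% GC. After the trend of all genes with GC content and length was subtracted, the KIF20B difference went from -2.01 to -1.49, that of KIF14 from -0.93 to -0.59, that of KIF18B from 0.51 to 0.17 and that of KIF7 from 0.43 to -0.04. KIF20A, at 48.4% GC, stayed at -0.82, KIFC3 was at 0.89 and KIF3C moved farther from 0, to -1.0. The medians after subtraction were -0.11 for mitotic, -0.22 for transport and 0.67 for ciliary and other kinesins. The part of base composition in these differences was not tested beyond this subtraction.

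**Figure D5:**
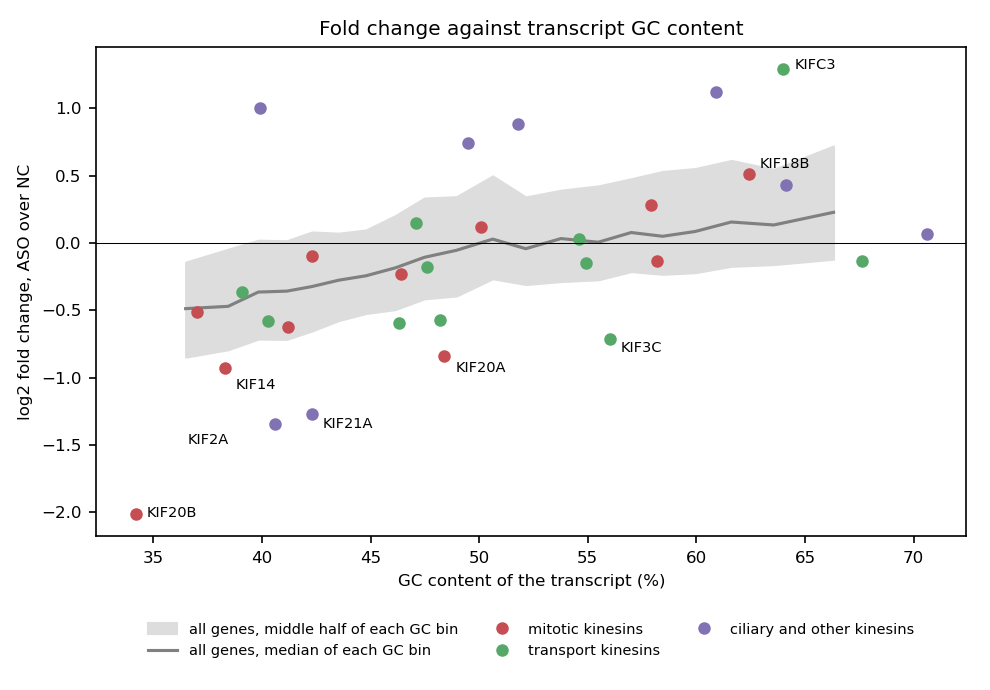
The log2 difference of ASO over NC for kinesins with a mean of at least 1 CPM in NC, against the GC content of the transcript in percent. Each point is 1 gene coloured by role, the grey line is the median over all genes in bins of GC content and the band runs from the lower to the upper quartile of each bin. The grey line climbs with GC content, KIF20B lies below it at 34.2% GC and KIFC3 above it at 64.0% GC.

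In the GENCODE v29 annotation, exons of 8 kinesins share bases with another gene of the table. The annotation behind the counts was not given, and the labels do not say whether counting used strand. Reads from such pairs cannot be told apart where the counted exons overlap. The count table ends KIF2A at 62391025, against 62537249 in GENCODE v29, and the bounds of KIF7 also differ. The overlaps of KIF2A and KIF7 may therefore not apply to the counts. KIF20A shares 3.33% of its exonic bases with BRD8 (log2 -0.42, adjusted p = 0.00378 by edgeR) and 1.72% with CDC23 (log2 -0.34, adjusted p = 0.116 by edgeR), both smaller differences than its own. KIFC2 shares 17.8% with FOXH1, KIF7 11.8% with TICRR and KIF2A 8.96% with IPO11, while the other 4 genes, KIF4A, KIF9, KIF18A and KIF24, share 1.31 to 3.04%. KLHL18, which shares 178 bases with KIF9, averaged 104 CPM in NC, against 5.14 CPM for KIF9. KLHL18 was called higher (log2 0.37, adjusted p = 0.0147 by edgeR), and its part in the KIF9 value was not tested. PDZD11, METTL15 and UBAP1, which overlap KIF4A, KIF18A and KIF24, were not called.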

How the data were processed

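RNA sequencing values were the deposited estimated counts per gene, whole numbers with no scaling, in a table of 6 libraries. Per the submitters' processing notes, FastQC, STAR, StringTie and DESeq2 were used with build hg38. Versions, settings, strand and annotation were not given in the sources used here. StringTie derives such counts from coverage and read length, so 1 fragment was worth about 4 counts here and small counts overstate precision.

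From these counts, genes were kept by filterByExpr (minimum count 10, minimum total 15) and tested across all 14062 genes with edgeR 4.0.16 (R 4.3.3, TMM scaling, robust quasi-likelihood, group as the only term, Benjamini-Hochberg threshold 0.05). The low-count filter left 5593 genes untested. Genes near the floor in NC could pass it through the ASO libraries alone, among them KIF17, KIF5A, KIF4B, KIF25, KIF26B, KLC3 and TUBB8. Alternatives used DESeq2 1.42.0, limma-voom (limma 3.58.1), other scalings and filters, counts divided by 4, a loess trend (span 0.5) on GC content and length, the replicate number as a block, and fits that each dropped 1 library. The script was tested on simulated data of 13893 genes, with 100 changed by a log2 difference of 1 and 100 by 0.5. It called 58% of the former and 6% of the latter in the right direction. Far more genes were called in the real data, so these rates need not hold there. Exon overlaps, transcript length and GC came from GENCODE v29, with length and GC from the transcript of longest coding sequence per gene. Exact binomial intervals (95%) on fragments cover counting error only.

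Libraries with the same number deviated together over 9103 genes of at least 10 CPM (r = 0.186, 0.530 and 0.146 for numbers 1, 2 and 3). ASO1 correlated more with NC3 (0.321), and ASO3 correlated with NC1 at 0.0783. Deviations from the mean of 3 libraries depend on each other, so these values do not settle whether numbers 1 and 3 were paired. The blocked fit is given as an alternative only. The labels name no shared batch.

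The members, roles and lists were chosen with earlier results of these data known. Values in every library are given for tested members with at least 1 CPM that were called or are mitotic or transport kinesins, and for lists up to 3 genes per direction by p. The 4 promoters are called members with the smallest p in each role, passing over KIF20A and KIF21A, whose windows lie almost wholly in annotated exons, a choice made after the values were seen. Protein sequences were not used here.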

Additional observations from a re-analysis of the deposited data

How the results depend on the processing

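The 35 tested kinesins gave 557 values under the alternatives. Of these, 503 kept direction and side of the threshold, 28 fell short of it, 18 newly passed and 8, in 5 genes not called, changed sign. Of the 18 called kinesins, 12 were called in every setting. The sign changes were KIF23 (0.06 without ASO1, range -0.30 to 0.06 without 1 library), KIFC2 (0.02 without ASO2, -0.26 to 0.02), KIF1B (-0.01 without replicate 2 of both groups, a setting chosen after seeing the data, and 0.05 to 0.29 without 1 library), KIF26A (-0.01 without NC3, -0.01 to 0.17) and KIF13B (-0.02 with limma-voom, -0.01 with the replicate block, -0.05 without NC1 and -0.27 without ASO3, range -0.27 to 0.15 without 1 library and 0.20 without replicate 2). The replicate block gave 2 mitotic kinesins higher, 5 transport kinesins lower and 4 dynein or dynactin genes higher, and it changed no kinesin call other than those given for KIFC1, KIF4A, KIF3B, KIF5B and KIF26B. DESeq2 gave 1 dynein or dynactin gene higher. With no filter the median log2 difference was 0.09 for all kinesins and 0.99 for ciliary and other kinesins, which was 0.61 with counts divided by 4. Removing the GC and length trend gave 0.67 for that group and -0.22 for transport kinesins.

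Leaving out 1 library moved the median between -0.15 and 0.02 for all kinesins, -0.26 and -0.07 for transport and 0.72 and 0.85 for ciliary and other kinesins. Counts ranged from 2 to 5 (mitotic lower), 1 to 2 (mitotic higher), 2 to 5 (transport lower) and 2 to 5 (ciliary and other higher). They ranged from 4 to 8 (adaptors higher), 2 to 4 (adaptors lower), 4 to 9 (partners lower), 0 to 1 (dynein and dynactin higher), 5 to 11 (dynein and dynactin lower) and 1 to 3 (tubulins lower). Without replicate 2 of both groups, the ciliary and other median was 0.61, with 9 adaptors higher and 12 dynein and dynactin genes lower. The share of all genes called is not given for fits without 1 library, for unadjusted p or for other tools. Counts from those settings therefore have no background and cannot be read as a trait of a list. At this depth, kinesins under 12 counts in a library were at the limit of detection.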
